A study of Mus musculus with 2 samples.

Results

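Glycolysis and the response to low oxygen were followed in the embryonic mouse tongue through 34 genes of 22072 gene symbols in the deposited tables. The genes were chosen by name, with earlier results of these data known. They comprise 19 genes of glycolysis and of the fate of pyruvate, and 4 transporters of glucose and lactate. The rest are 4 genes of oxygen sensing and 7 genes induced by low oxygen. All 34 were found, in 48 of 28107 transcript rows. The mutant library came from tongues with a conditional allele of Osr1 over a null allele together with Wnt1cre (Osr1f/-; Wnt1cre), and the control library from tongues with the conditional allele over a wild-type allele (Osr1f/+). All tongues were taken at embryonic day 12 from mice of mixed background, and the conditional allele of Osr1, a zinc finger transcription factor gene, was shared by both genotypes. Wnt1cre acts in the neural crest lineage, which gives the connective tissue of the tongue, whereas its muscle comes from somites. The null allele was present in all cells of the mutant, and the control label names no Cre. RNA was extracted from pools of 3 pairs of mutant and control samples and gave 1 library per genotype. With no replicate library, every ratio below compares 2 libraries, and no test between genotypes was possible.

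Glycolysis splits glucose into pyruvate and yields ATP without oxygen, and lactate dehydrogenase turns pyruvate into lactate. Oxygen is sensed by prolyl hydroxylases of the EGLN family, which mark the alpha subunits of the hypoxia-inducible factor (HIF) for breakdown while oxygen is present. When oxygen is low, the alpha subunits persist, pair with ARNT and bind short DNA motifs with the core ACGTG or GCGTG near target genes. Those targets include many glycolytic enzymes, the glucose transporter gene Slc2a1, the vessel growth factor gene Vegfa and Egln3 itself. Rapidly growing embryonic tissues are known to use glycolysis also when oxygen is present.

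The mutant library had about 23200000 mapped reads and the control library about 18900000, as estimated from the deposited coverage. FPKM, fragment number per transcript length and library depth, is a level scaled for length and depth, so levels of different genes can be set side by side. Osr1 itself had 18.4 FPKM in the mutant library and 56.8 FPKM in the control library, a ratio of 0.325. Markers of muscle, epithelium, mesenchyme and blood were detected in both libraries. The summed level of 9 red cell markers was 1178 FPKM in the mutant and 1430 FPKM in the control library, that of 8 neuronal markers 36.2 and 45.1 FPKM, and that of 8 epithelial markers 111.7 and 126.7 FPKM. The 8 cartilage markers summed to 234 FPKM in the mutant and 168 FPKM in the control library, the 10 muscle markers to 725 and 695 FPKM, and the 8 endothelial markers to 79.3 and 75.3 FPKM. The 8 markers of tongue mesenchyme, which include Osr1, summed to 632 FPKM in the mutant and 703 FPKM in the control library, and the 7 macrophage markers to 22.8 and 19.7 FPKM. In pooled tissue, fewer cells of a type and less RNA per cell cannot be told apart.

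The pathway as a whole lay close to equal in the libraries, and 1 gene passed the 1.2-fold limit used here. A gene was counted as measured at 1 FPKM or more in either library, which 31 of the 34 genes reached. Of these, 19 were higher and 12 lower in the mutant library, beside 6336 higher and 6046 lower of 12383 measured genes. The median log2 ratio, of FPKM plus 1 in the mutant over FPKM plus 1 in the control, was 0.03 for the 31 genes and 0.0035 for all measured genes. A difference of at least 1.2-fold higher on that scale was found for 1 of the 31 genes, Egln3, where 4.77% of all measured genes passed it. None of the 31 was at least 1.2-fold lower, where 3.46% of all measured genes were, so both counts are near the background. Of the 31 genes, 25 were within 1.1-fold, a share of 80.6% beside 73.9% of all measured genes. Eno2, at a log2 ratio of −0.25, and Ankrd37, at 0.25, were the nearest to the 1.2-fold limit, which is 0.26 on the log2 scale. With a pseudocount of 0.1 in place of 1, both passed it, at −0.34 for Eno2 and 0.37 for Ankrd37. Aldoc, Car9 and Adm stayed below 1 FPKM in both libraries, and Pfkp, Ankrd37 and Eno2 were the lowest of those above it.

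**Figure D1:**
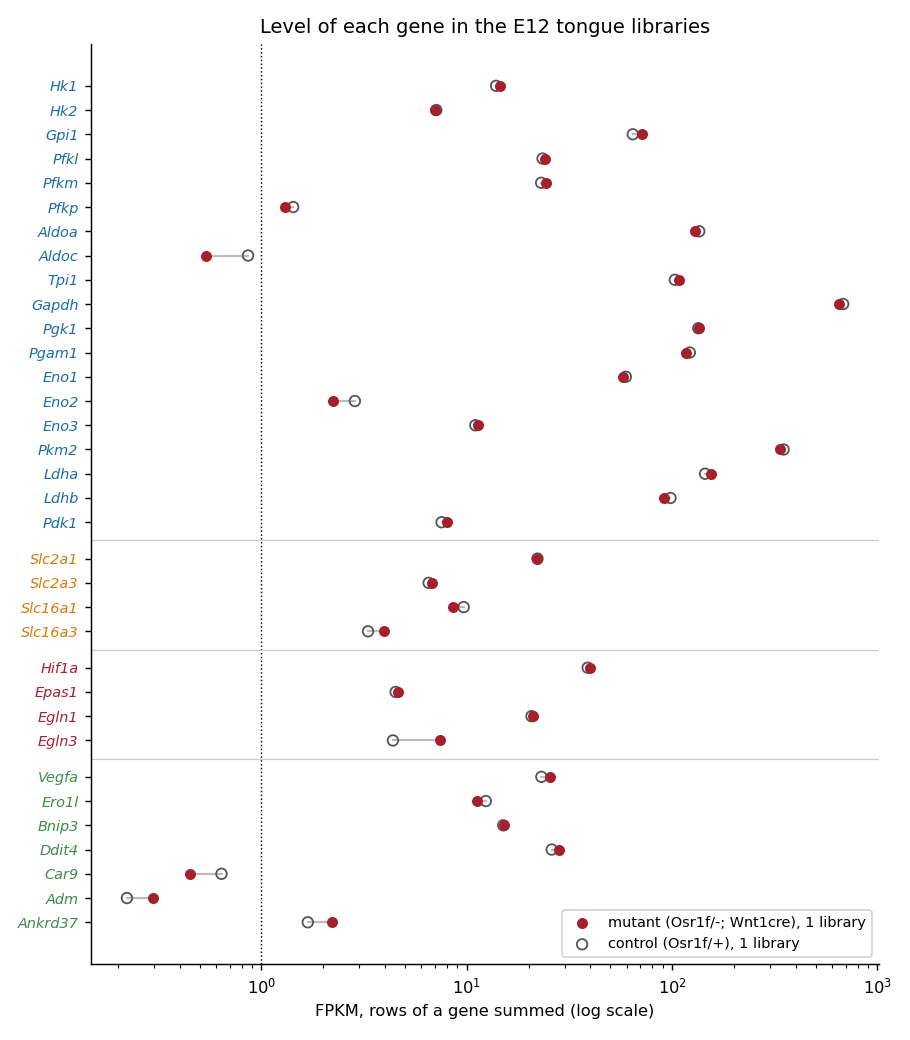
Level of each of the 34 genes in FPKM on a log axis, with the mutant library as filled and the control library as open circles, 1 library each. The dotted line marks 1 FPKM, and the gene names are coloured by role (enzymes blue, transporters orange, oxygen sensing red, targets green). Levels run from Gapdh, at 653 FPKM in the mutant and 681 FPKM in the control library, down to Adm, at 0.295 and 0.221 FPKM, and the pair of circles of Egln3 is the most widely spaced among genes above 1 FPKM.

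Because the reads behind each value could be estimated, each ratio is given with its 95% counting interval, by the exact Clopper-Pearson method. It covers counting error alone and holds no variation between embryos. The interval lay above 1 for 5 of the 31 genes, where it did for 10.7% of all measured genes, and below 1 for 8, where it did for 10.2% of all measured genes. Such counts grow with the reads of a gene. Among the 10 genes of the pathway with at least 50 FPKM, all of them enzymes, the interval lay above 1 for 3 and below 1 for 5. It thus excluded 1 for 80% of these 10 genes. Of the 1067 measured genes of that level it lay above 1 for 13.1% and below 1 for 22.6%, and so excluded 1 for 35.7%. Among the 10 enzymes some intervals ended close to 1, at 1.002 for Tpi1, 0.997 for Aldoa and 0.996 for Pgam1. A small change of scale could move such genes across 1, and these counts were not repeated under other scalings. The median of estimated reads in the control library was about 4056 for the 10 genes and 3756 for the 1067. The median log2 ratio was −0.05 for these 10 enzymes and −0.02 for the 1067 genes. The differences behind those counts were small, as the values of each step show.

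The enzymes of glycolysis made up most of the RNA of the pathway. They summed to 1947 FPKM in the mutant and 1983 FPKM in the control library, which was 90.8% of the total of the 34 genes in the mutant and 91.3% in the control. The ratio of these sums was 0.982. Of 18 measured enzyme genes 9 were higher and 9 lower in the mutant library, with a median log2 ratio of 0.0015, so the enzymes had no common direction.

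At the entry of the pathway, hexokinase traps glucose in the cell by phosphorylation. Hk1, the widely expressed hexokinase gene, had 14.5 FPKM in the mutant and 13.9 FPKM in the control library, a ratio of 1.04 (95% counting interval 0.963 to 1.13). Hk2, the form of muscle and growing cells and a known HIF target, had 7.03 FPKM in the mutant and 7.10 FPKM in the control library, a ratio of 0.989 (0.896 to 1.09). Neither gene differed by more than its counting error. Gpi1, glucose-6-phosphate isomerase, had 71.0 FPKM in the mutant and 64.4 FPKM in the control library. Its ratio of 1.10 (1.06 to 1.15) was the highest among the enzymes.

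Phosphofructokinase commits the sugar to glycolysis, and its RNA came almost wholly from the liver-type and muscle-type genes. Pfkl had 23.9 FPKM in the mutant and 23.4 FPKM in the control library, and Pfkm had 24.3 and 23.0 FPKM. Pfkp, the platelet-type gene, was much lower, with 1.30 FPKM in the mutant and 1.43 FPKM in the control library. For all 3 genes the counting interval of the ratio included 1. Pfkm gave 49.1% of the FPKM of this step in the mutant and 48.1% in the control library.

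Aldolase splits the sugar into 2 trioses, and Aldoa gave nearly all of its RNA, with 129.6 FPKM in the mutant and 135.6 FPKM in the control library (ratio 0.955, 0.915 to 0.997). Aldoc, the brain-type gene, had 0.535 FPKM in the mutant and 0.860 FPKM in the control library, from about 21 and 28 reads. Its counting interval, 0.331 to 1.12, was too wide to show a difference at this depth. Tpi1, which interconverts the trioses, had 108 FPKM in the mutant and 103 FPKM in the control library, a ratio of 1.05 (1.002 to 1.10).

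The payoff steps held the most abundant RNAs of the pathway. Gapdh, which oxidises the triose and is often used as a reference gene, had 653 FPKM in the mutant and 681 FPKM in the control library. Its ratio was 0.959 (0.939 to 0.979), from about 18647 and 15879 reads. Gapdh ranked at the 99.8 percentile of mean level among all measured genes, so a difference of a few percent exceeded its counting error. Pgk1, the first enzyme to make ATP, had 135.8 FPKM in the mutant and 134 FPKM in the control library (ratio 1.01, 0.973 to 1.05). Pgam1, the mutase that follows, had 116.5 FPKM in the mutant and 122 FPKM in the control library (ratio 0.955, 0.917 to 0.996). Gapdh and Pgam1 were thus lower by a few percent, and Pgk1 did not differ by more than its counting error.

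The enolase genes differ by tissue, with Eno1 widespread, Eno2 typical of neurons and Eno3 of muscle. Eno1 had 57.7 FPKM in the mutant and 59.5 FPKM in the control library, a ratio of 0.970 (0.914 to 1.03). Eno3 had 11.3 FPKM in the mutant and 11.0 FPKM in the control library, a ratio of 1.03 (0.879 to 1.196). Eno2 had 2.23 FPKM in the mutant and 2.85 FPKM in the control library, a ratio of 0.781 (0.614 to 0.996), the lowest among the 31 measured genes. The neuronal marker sum was lower in the mutant library too, with a ratio of 0.803, and 5 of 7 measured neuronal markers were lower. Neuronal Snap25 had 0.239 FPKM in the mutant and 3.45 FPKM in the control library, Tubb3 had 3.16 and 6.33 FPKM, and Dcx went the other way with 11.6 and 8.79 FPKM. The part of neuronal cells in the value of Eno2 was not tested. For Eno3, the muscle marker sum had a ratio of 1.04.

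Pyruvate kinase closes glycolysis, and its gene stands in the tables under the older symbol Pkm2. Pkm2 had 336 FPKM in the mutant and 349 FPKM in the control library, a ratio of 0.963 (0.942 to 0.985). Its single row does not separate the splice forms of the enzyme. Pyruvate then meets lactate dehydrogenase, whose A and B subunits are known for favouring the making and the use of lactate. Ldha, the A subunit gene, had 154 FPKM in the mutant and 144.7 FPKM in the control library, a ratio of 1.07 (1.03 to 1.11). Ldhb, the B subunit gene, had 90.9 FPKM in the mutant and 98.2 FPKM in the control library, a ratio of 0.926 (0.876 to 0.978). The subunit genes thus lay on opposite sides of 1, each by more than its counting error, while their sum had a ratio of 1.01. Ldha gave 62.9% of the FPKM of the pair in the mutant and 59.6% in the control library. Pdk1, which encodes a pyruvate dehydrogenase kinase and is a known HIF target, had 8.01 FPKM in the mutant and 7.54 FPKM in the control library. Its ratio was 1.06 (0.963 to 1.17).

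**Figure D2:**
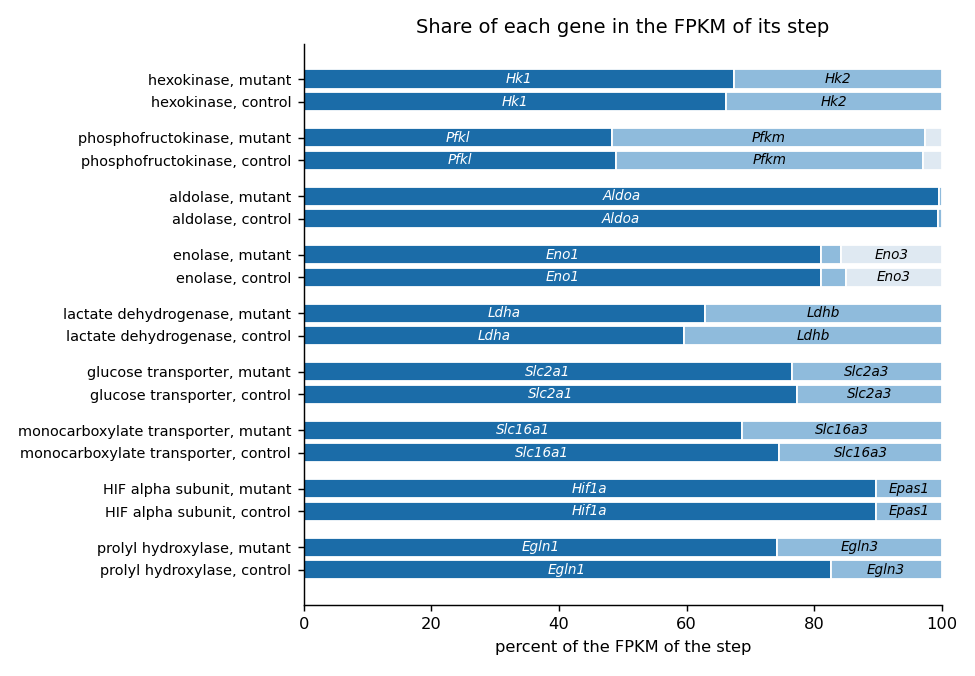
Share of each gene in the summed FPKM of its step, as stacked bars for the mutant library above the control library, for steps with more than 1 gene among the 34. The unlabelled thin segments are Pfkp, Aldoc and Eno2. The bars of most steps match closely, and the share of Egln3 among the prolyl hydroxylase genes shown is 25.9% in the mutant and 17.4% in the control library.

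The transporters summed to 41.4 FPKM in the mutant and 41.6 FPKM in the control library, with 2 of 4 genes higher and a median log2 ratio of 0.02. Slc2a1, which encodes the widespread glucose transporter GLUT1, had 22.1 FPKM in both libraries (ratio 0.9997, 0.921 to 1.08). Slc2a3, the high-affinity transporter GLUT3, had 6.78 FPKM in the mutant and 6.52 FPKM in the control library (ratio 1.04, 0.923 to 1.17). For neither glucose transporter gene did the difference exceed the counting error. The monocarboxylate transporters, which carry lactate, differed in opposite directions. Slc16a1 (MCT1) had 8.62 FPKM in the mutant and 9.66 FPKM in the control library, a ratio of 0.892 (0.810 to 0.983). Slc16a3 (MCT4), the lactate exporter of strongly glycolytic cells, had 3.94 FPKM in the mutant and 3.30 FPKM in the control library, a ratio of 1.19 (0.966 to 1.47). The interval of Slc16a3 included 1. Slc16a3 gave 31.4% of the FPKM of the pair in the mutant and 25.5% in the control library.

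Of the oxygen sensing genes, Egln3 was far higher in the mutant library and the other 3 were within a few percent. Hif1a, the HIF alpha subunit of most cells, had 40.0 FPKM in the mutant and 38.8 FPKM in the control library, a ratio of 1.03 (0.986 to 1.08). Epas1, which encodes HIF-2 alpha and is known from endothelium, had 4.63 FPKM in the mutant and 4.50 FPKM in the control library, a ratio of 1.03 (0.907 to 1.16). Hif1a gave 89.6% of the FPKM of the pair in each library. Neither alpha subunit gene differed by more than its counting error. HIF activity is set mainly through the stability of these proteins, which RNA levels do not show.

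Egln1, the main prolyl hydroxylase of normal oxygen (PHD2), had 21.1 FPKM in the mutant and 20.7 FPKM in the control library, a ratio of 1.02 (0.951 to 1.10). Egln3 (PHD3, on mm9 chr12:55279968-55304861) had 7.37 FPKM in the mutant and 4.37 FPKM in the control library. The ratio was 1.69 (1.43 to 1.99), from about 457 and 221 reads on a single transcript row that overlaps no other gene model. Of 12383 measured genes 97 had a higher log2 ratio than Egln3, whose own was 0.64. Egln2 (PHD1), singled out with its values known, had 27.9 FPKM in the mutant and 29.6 FPKM in the control library, a ratio of 0.944 (0.873 to 1.02). The interval of Egln3 thus lay above those of both relatives without overlap, while Egln3 was the least abundant of the family in both libraries. The cartilage marker sum was higher in the mutant library as well, with a ratio of 1.39 and 8 of 8 markers higher, and the macrophage sum had a ratio of 1.16 with 5 of 6 measured markers higher. The muscle and endothelial sums had ratios of 1.04 and 1.05. Their part in the value of Egln3 was not tested.

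The bases before the start of Egln3 are shown beside those of Egln1, its close relative, and of the HIF targets Bnip3 and Ldha. Bnip3 had a ratio of 1.01, and Ldha one of 1.07 with an interval above 1. The letters that HIF binds are a known link among these genes, and bases outside the windows were not searched. The sequences are from RefSeq on GRCm38.p6, another build than the expression tables, and give the 250 bases before a start, 5′ to 3′ on the strand of the gene. Capitals mark the letters ACGTG and GCGTG on either strand, and overlapping matches, as in CACGTG, are joined and counted as 1. The windows are chr12:54203875-54204124 (minus strand) for Egln3, chr8:124949255-124949504 (minus strand) for Egln1, chr7:138909507-138909756 (minus strand) for Bnip3 and chr7:46845554-46845803 (plus strand) for Ldha, the last for the upstream one of its starts.
Egln3: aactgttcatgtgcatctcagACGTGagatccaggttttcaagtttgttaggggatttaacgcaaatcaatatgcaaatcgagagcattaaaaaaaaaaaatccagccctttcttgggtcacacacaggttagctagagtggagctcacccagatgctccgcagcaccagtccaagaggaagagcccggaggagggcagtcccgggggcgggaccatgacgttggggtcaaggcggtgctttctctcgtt
Egln1: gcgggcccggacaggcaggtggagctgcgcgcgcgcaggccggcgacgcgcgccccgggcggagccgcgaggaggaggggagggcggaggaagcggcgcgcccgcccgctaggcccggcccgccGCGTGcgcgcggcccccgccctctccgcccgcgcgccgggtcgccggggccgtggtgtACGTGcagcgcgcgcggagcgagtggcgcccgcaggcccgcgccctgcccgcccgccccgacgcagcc
Bnip3: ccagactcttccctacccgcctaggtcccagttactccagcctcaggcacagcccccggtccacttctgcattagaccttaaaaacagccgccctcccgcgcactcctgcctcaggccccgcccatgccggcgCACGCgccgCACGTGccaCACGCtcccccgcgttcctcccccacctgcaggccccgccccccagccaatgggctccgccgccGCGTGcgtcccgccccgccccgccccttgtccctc
Ldha: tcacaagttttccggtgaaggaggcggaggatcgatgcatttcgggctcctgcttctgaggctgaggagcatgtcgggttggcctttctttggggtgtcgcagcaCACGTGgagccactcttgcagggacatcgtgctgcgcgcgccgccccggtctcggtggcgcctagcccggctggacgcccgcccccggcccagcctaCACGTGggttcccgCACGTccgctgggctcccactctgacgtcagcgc
The window of Egln3 held 1 match, that of Egln1 2, that of Bnip3 4 and that of Ldha 3. Over the 32 of 34 genes with an entry, which Epas1 and Slc2a3 lacked, 36 of 45 windows held a match. That share of 80.0% stands beside 38.6% of the 32851 windows of all genes in the table and 56.4% of the 11173 windows of 8683 measured genes matched by symbol. Some windows of 1 gene overlap, as for Eno1, Aldoa and Pfkm, so shared matches are counted again. By gene, 29 of the 32 had a match in any window, or 90.6%, beside 41.5% of 27025 genes. The genes were chosen by name and include known HIF targets, and the shares are not matched for base composition. The windows of Gpi1, Tpi1 and Eno2 held none. A match says only that these letters are in the window, not that a factor binds there.

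Genes induced by low oxygen had a median log2 ratio of 0.11 over 5 measured genes, with 4 higher and 1 lower in the mutant library. With a filter of 5 FPKM, which leaves out Ankrd37, the median was 0.06. Vegfa was the sole gene of the 5 whose counting interval lay above 1. Vegfa, the growth factor of blood vessels, had 25.4 FPKM in the mutant and 23.1 FPKM in the control library, a ratio of 1.10 (1.02 to 1.18). Ddit4, an inhibitor of mTOR signalling induced by several stresses, had 28.1 FPKM in the mutant and 25.9 FPKM in the control library, a ratio of 1.09 (0.991 to 1.19). Bnip3, which acts in the removal of mitochondria, had 15.2 FPKM in the mutant and 15.0 FPKM in the control library, a ratio of 1.01 (0.895 to 1.14). Ero1l, the oxidase that forms disulfide bonds in the endoplasmic reticulum, was lower, with 11.2 FPKM in the mutant and 12.4 FPKM in the control library (ratio 0.908, 0.834 to 0.988).

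The remaining targets were low. Ankrd37, an ankyrin repeat gene known as a HIF target, had 2.20 FPKM in the mutant and 1.68 FPKM in the control library, a ratio of 1.31 from about 46 and 29 reads, with an interval of 0.796 to 2.14. Car9, a carbonic anhydrase that marks strongly hypoxic cells in tumours, had 0.447 FPKM in the mutant and 0.639 FPKM in the control library, from about 20 and 24 reads. Adm, the vascular peptide adrenomedullin, had 0.295 FPKM in the mutant and 0.221 FPKM in the control library, from about 9 and 6 reads. A difference of these 3 genes was not detectable at this depth.

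**Figure D3:**
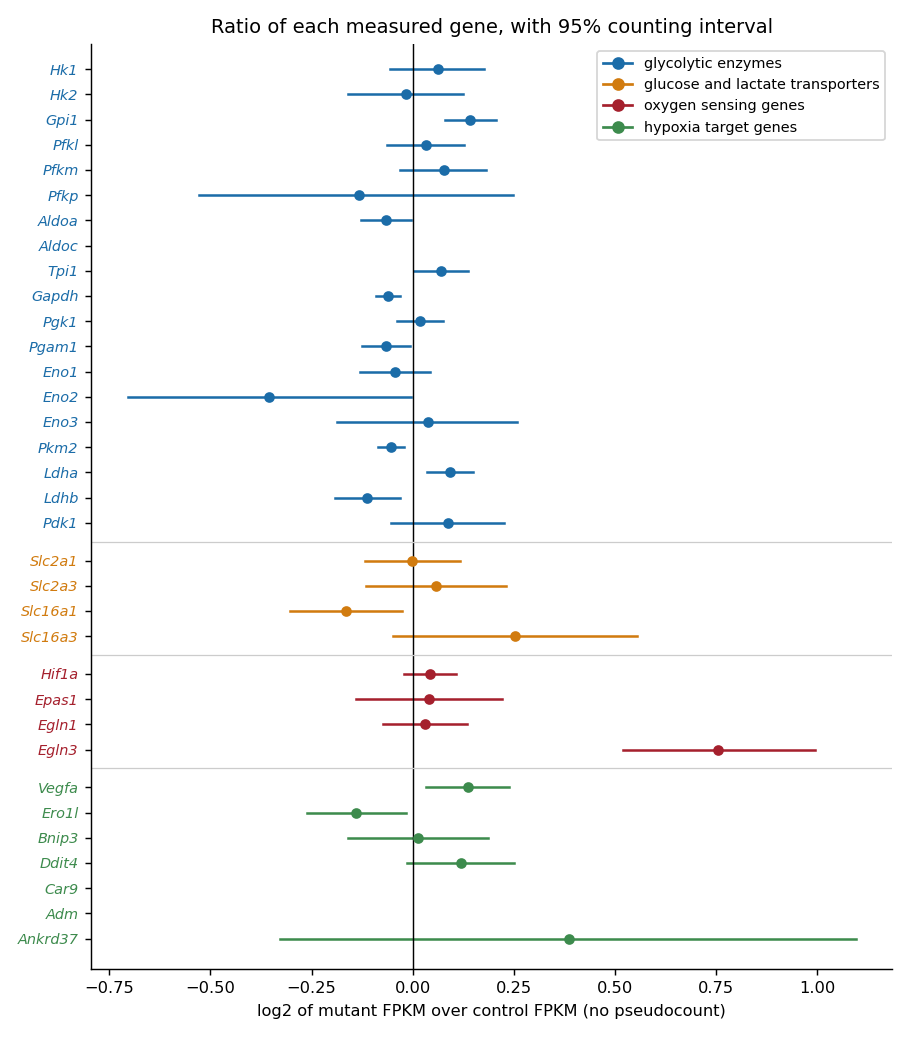
Ratio of mutant to control FPKM of each measured gene on a log2 axis without a pseudocount (points), with the 95% counting interval from approximate reads (lines), coloured by role. Aldoc, Car9 and Adm, below 1 FPKM in both libraries, have no point. The interval of Egln3, 1.43 to 1.99 as a ratio, lies to the right of those of all other genes with over 100 reads in each library except Slc16a3, whose interval of 0.966 to 1.47 reaches into it.

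Vegfa was the gene with the most transcript rows, 6 in all, and the estimated rows differed more than their sum. The rows form 3 pairs, each of a longer model and one that is 690 nt shorter. Between pairs the models differ by 72 and then 132 nt. The middle pair (NM_009505 and NM_001110267) had 19.5 FPKM in the mutant and 12.5 FPKM in the control library, or 76.8% and 54.0% of the gene. The shortest pair (NM_001025257 and NM_001110268) had 5.03 FPKM in the mutant and 9.11 FPKM in the control library, or 19.8% and 39.4%. The longest pair (NM_001025250 and NM_001110266) had 0.855 FPKM in the mutant and 1.52 FPKM in the control library. The middle pair was therefore the most abundant in both libraries and held a greater share in the mutant. Most bases are shared among these models, so the split is an estimate by the authors' tool for which the files give no error.

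Rows of the other genes with several transcripts were mostly carried by 1 row. Aldoa NM_007438 gave 91.9% of the gene in the mutant and 93.9% in the control library, and Ldha NM_010699 gave 99.5% and 99.2%. Hk1 NM_001146100 gave 98.0% in the mutant and all but a trace in the control library. Pfkm NM_021514 was estimated at 3.91 FPKM in the mutant library and near 0 in the control library, while Pfkm NM_001163487 had 20.4 and 23.0 FPKM. The summed value of Pfkm was nearly equal, so its leading row alone would turn the direction, with a log2 ratio of −0.17 against 0.08 for the sum. Eno3 NM_001136062 gave 63.2% in the mutant and 57.4% in the control library, and Slc16a3 NM_001038653 gave 92.5% and 99.8%. The gene models of Hk1, Pfkm, Pfkp, Tpi1 and Eno1 overlap those of other genes, so their reads are less certainly assigned. Gapdh, Pgk1, Ldha and other abundant enzymes have near-identical processed copies in the genome, and reads shared with such copies are uncertain too.

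**Figure D4:**
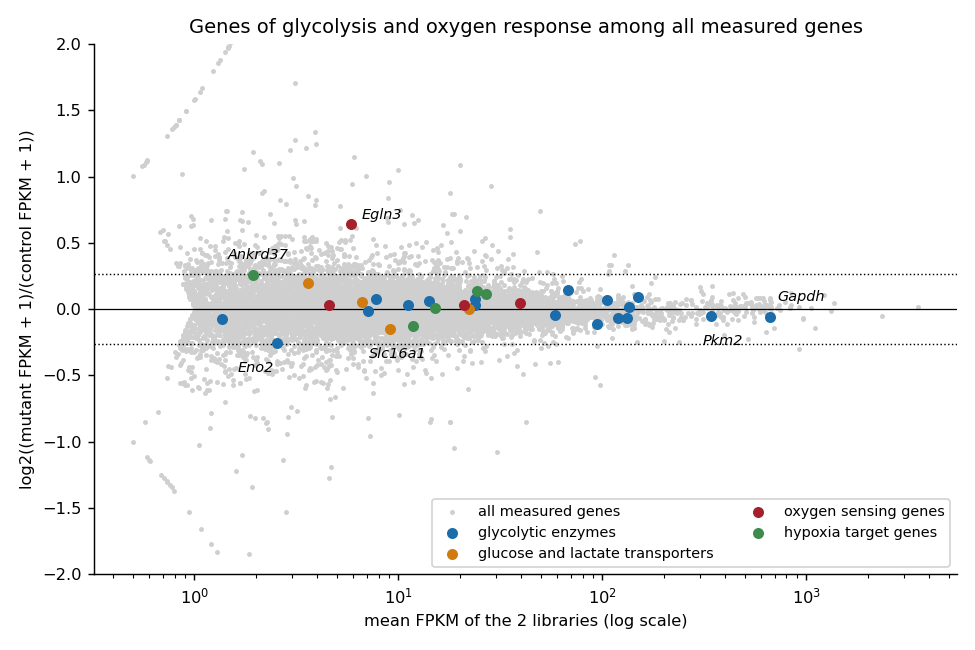
Log2 ratio between mutant and control FPKM, with 1 added to each, against the mean FPKM of the 2 libraries (log axis), for all 12383 measured genes in grey and the 31 measured genes of the pathway in colour by role. The dotted lines mark 1.2-fold, and 21 genes lie outside the vertical range shown. Egln3, at 0.64, is the coloured point beyond the dotted lines, and the abundant enzymes to the right lie close to 0.

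Other genes of sugar use had a median absolute log2 ratio of 0.066, beside 0.074 for all measured genes. Of 39 listed genes 27 were measured, with 16 higher, 11 lower and a median log2 ratio of 0.04 beside 0.0035 for all measured genes. Slc16a7 (MCT2) had 1.88 FPKM in the mutant and 1.36 FPKM in the control library, from about 105 and 62 reads. Its ratio was 1.38, and its counting interval, 1.0008 to 1.92, nearly reached 1. Slc16a7 was the 1 gene of the 27 at least 1.2-fold higher, and none was at least 1.2-fold lower. Of all measured genes 4.77% were past that fold on the higher and 3.46% on the lower side, so these counts are near the background. The largest absolute log2 ratios among genes of at least 5 FPKM belonged to G6pc3, Bpgm, Pdk2, Pdk3, Pfkfb2 and Pgam2. G6pc3, a glucose-6-phosphatase, had 12.0 FPKM in the mutant and 10.4 FPKM in the control library, and Bpgm, the red cell enzyme that makes bisphosphoglycerate, had 12.8 and 14.7 FPKM. The red cell marker sum had a ratio of 0.824, and its part in the value of Bpgm was not tested. Pdk2 and Pdk3, kinases with the same role as Pdk1, had ratios of 1.14 (1.01 to 1.28) and 1.11 (1.005 to 1.24). Pfkfb2, which sets the level of an activator of phosphofructokinase, had a ratio of 1.12 (0.995 to 1.23), and Pgam2, the muscle mutase, of 0.925 (0.770 to 1.11).

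Other genes of the HIF pathway were listed as 39 symbols, of which 37 were found, 35 were measured and 3 also stood in the list of sugar use. In the mutant library 21 were higher and 14 lower, with a median log2 ratio of 0.04. None passed 1.2-fold on the higher side, and 2, Hmox1 and Lox, passed it on the lower side, beside 4.77% and 3.46% of all measured genes. Hmox1, heme oxygenase, had 9.07 FPKM in the mutant and 11.9 FPKM in the control library, a ratio of 0.762 (0.653 to 0.887). Lox, which crosslinks collagen and elastin, had 10.6 FPKM in the mutant and 13.3 FPKM in the control library, a ratio of 0.795 (0.724 to 0.874). Hmox1 is also known to answer to heme and oxidants, and Lox belongs to the matrix genes of fibroblasts. The mesenchyme marker sum, which includes Osr1 at 18.4 FPKM in the mutant and 56.8 FPKM in the control library, had a ratio of 0.899. Of its 8 markers 3 were higher and 5 lower in the mutant library. The part of the mesenchyme in the value of Lox was not tested. Igfbp3, an IGF-binding protein gene, had a ratio of 1.16 (1.10 to 1.22), and Mxi1, a MYC antagonist, of 1.15 (1.04 to 1.27). Cited2, a HIF inhibitor that competes for the coactivator p300, had a ratio of 0.866 (0.774 to 0.971). Higd1a, which encodes a mitochondrial protein, had a ratio of 0.870 (0.728 to 1.04). Arnt, the partner of the alpha subunits, and Vhl, which marks them for breakdown, were picked with their values in view and had ratios of 1.03 (0.970 to 1.10) and 0.991 (0.906 to 1.08). For neither of them did the difference exceed the counting error.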

How the data were processed

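RNA of pooled embryonic mouse tongues was sequenced from 1 mutant and 1 control library, with cDNA made by NuGEN Ovation RNA-Seq v2 amplification, per the labels' protocols. Bowtie 0.12.7, TopHat 1.4.1 and the build mm9 are named in the submitters' processing notes. The deposited FPKM values are per transcript row, in a table laid out as by Cufflinks, whose version is not given in the sources used here. The coverage signal of each row is also deposited and is not scaled for depth.

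Rows were summed per symbol, and a gene was measured at 1 FPKM or more in either library with all its rows marked OK, which left 12383 genes. The log2 ratio used a pseudocount of 1, which understates differences of low genes. Starts in the files count from 0 and were raised to count from 1. The product of coverage and length clustered at 47.2 bases over genes with 1 row and a length of at least 1000 nt, taken as 1 read. This gave about 23200000 reads for the mutant and 18900000 for the control library, and reads per gene. Intervals are exact Clopper-Pearson at 95% and cover counting error only. They were tested only on simulated Poisson counts, for which such intervals hold by construction. Reads from amplified cDNA are not independent molecules, and the simulation did not imitate them. In genes of several rows the intervals rest on summed reads. Each FPKM ratio of the 34 genes lay inside its interval.

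The members, lists and limits were chosen with earlier results of these data known. All 34 genes are named, and of each list of other pathway genes the 6 with the largest absolute log2 ratio at 5 FPKM, beside Slc16a7, Egln2, Arnt, Vhl and the marker genes Snap25, Tubb3 and Dcx, named after their values were seen. Alternatives were another pseudocount (0.1), no filter or a filter of 5 FPKM, centring, TPM scaling, quantile normalization, the leading row alone, the ratio of reads, and, added after seeing the data, leaving out genes with an overlapping model. Python 3.11.15, pandas 2.3.3 and scipy 1.17.1 were used.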

Additional observations from a re-analysis of the deposited data

How the results depend on the processing

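The log2 ratios of the groups moved by less than the typical counting error of a single gene of the group. This held for medians under all 9 alternatives and for sums under the 8 run for them. The limit was 0.083 in log2 for the enzymes and 0.13 for the targets. It is loose, since a sum over genes has less counting error than a single gene, so staying inside it says little about stability. The median of the 31 genes ran from 0.03 to 0.04, that of the enzymes from −0.03 to 0.02, and that of the transporters from −0.00048 to 0.03, so these last medians have no fixed sign. That of the targets ran from 0.06 to 0.12, the lowest with the filter of 5 FPKM. Egln3 stayed at least 1.2-fold higher under all 9, at log2 0.62 to 0.74. The count of genes at least 1.2-fold higher was 2 with a pseudocount of 0.1 and with TPM scaling, where Ankrd37 joined Egln3. The count at least 1.2-fold lower was 1 with a pseudocount of 0.1, with TPM scaling and with quantile normalization, which was Eno2, and 1 with no filter, which was Aldoc. Lower weight of the pseudocount on low genes, or the entry of Aldoc, is built into the first, second and last of these settings, and for quantile normalization the cause was not tested. Of single genes, Pfkm left its counting error with the leading row alone, at −0.17. Setting the median of all genes to 0 moved values by 0.0035. No paired analysis was possible because each genotype had 1 library, and for the same reason no replicate could be left out. Depth limits Aldoc, Car9, Adm and Ankrd37.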

Other observations

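Some genes of the branches that leave glycolysis are given here beside Bpgm, which had a ratio of 0.871 (95% counting interval 0.777 to 0.979). In the pentose phosphate pathway, which makes NADPH and ribose, Taldo1 had 49.95 FPKM in the mutant and 51.3 FPKM in the control library (ratio 0.975, 0.903 to 1.05), and Tkt had 47.6 and 46.3 FPKM (ratio 1.03, 0.978 to 1.08). Its oxidative enzymes G6pdx and Pgd had ratios of 1.03 (0.930 to 1.15) and 0.977 (0.911 to 1.05). Among glycogen genes, Gys1, the synthase of muscle and other tissues, had a ratio of 0.971 (0.894 to 1.06), and the phosphorylase genes Pygb and Pygl had 1.03 (0.962 to 1.09) and 0.897 (0.710 to 1.14). The interval included 1 for each of these pentose phosphate and glycogen genes, which were picked with their values in view.

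Oxygen-dependent enzymes of collagen, known to be induced by HIF, did not share a direction. The collagen prolyl hydroxylase genes P4ha1 and P4ha2 had ratios of 1.02 (0.935 to 1.11) and 1.05 (0.932 to 1.18). Plod2, a collagen lysyl hydroxylase gene, had 29.8 FPKM in the mutant and 32.6 FPKM in the control library, a ratio of 0.913 (0.863 to 0.967). Loxl2, a relative of Lox that also crosslinks collagen, had 24.5 FPKM in the mutant and 21.6 FPKM in the control library, a ratio of 1.13 (1.07 to 1.199), while Lox itself was lower in the mutant library. These genes too were chosen after their values were seen.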
